A study of Arabidopsis thaliana with 103 samples.

Results

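PIAL2 peaks outside the MORC6 and AIPP3 peak lists were examined in Arabidopsis thaliana. The members are the distinct nuclear intervals of the PIAL2-Myc replicate 1 peak list that shared no base with any interval of MORC6-Myc replicate 1 or 2 or of AIPP3-FLAG replicate 1 or 2. The rule kept 2557 of 7881 intervals (32.4%), which are called PIAL2-only peaks here, and the remaining 5324 are called other PIAL2-Myc peaks. The name holds for those 4 lists alone: 1553 of the 2557 (60.7%) lay in a MORC6-Myc peak of at least 1 line outside the rule, as described below.

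Chromatin immunoprecipitation followed by sequencing (ChIP-seq) had been done on unopened flower buds, and RNA-seq on whole seedlings 12 days old. The ChIP-seq plants of the PIAL2-Myc lists and of the lists of the rule were labelled a month old. So were the plants with tagged PHD1 and PHD3, whose lists are used below. PHD1 carried a FLAG tag in replicates 1 and 2, and PHD3 a FLAG tag in replicate 1 but a Myc tag in replicate 2. No age is given for the MORC6-Myc lines outside the rule. PIAL2-Myc was a genomic copy of PIAL2 under its native promoter with a C-terminal tag, in pial2-1 plants. MORC6-Myc of the rule was expressed in morc6-3 plants, AIPP3-FLAG was a tagged AIPP3, and a further 8 MORC6-Myc libraries came from separate lines of the second transgenic generation: 3 lines in the pial1/2 double mutant (pial1-2 pial2-1), 3 in morc6 and 2 in Col-0. RNA was sequenced from 3 replicates each of pial1/2, pial2-1, pial1-2, morc6-3, morchex (morc1-2 morc2-1 morc4-1 morc5-1 morc6-3 morc7-1), aipp3-1, aipp3-2 and Col-0, the wild type accession in which all the mutants stand. PIAL2-Myc chromatin was crosslinked with EGS and then formaldehyde, MORC6-Myc and AIPP3-FLAG chromatin with formaldehyde alone, so the protein and the crosslinking cannot be told apart in any comparison between these lists.

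PIAL1 and PIAL2 are SUMO E3 ligase-like proteins that bind MOM1, a factor that keeps transposable elements and transgenes transcriptionally silent in plants. MORC6 is a GHKL-type ATPase of the microrchidia family that acts in gene silencing, also with RNA-directed DNA methylation, and AIPP3 is a bromo-adjacent homology (BAH) domain protein that reads histone marks and is found both with MOM1 and in other complexes. The G-box, a palindromic DNA element, is the site of plant bHLH and bZIP factors, among them the light regulators PIF and HY5.

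Strong PIAL2-only peaks are shown by the sequence around their summits because an element, the G-box, recurred in many of them. Each window reaches 100 bases to either side of the summit (TAIR10.1, plus strand, 5′ to 3′), and capitals mark letters that matched one of the 10 motifs searched on both strands. The first 6 belong to the 6 strongest members overlapped by PIAL2-Myc replicate 2, the peak over PIAL2 itself left aside. The last, at PRR9, was in replicate 1 only and was chosen after its values were seen; of the 10 strongest members in replicate 1 only, 4 held a G-box, PRR9 among them, and the strongest of the 10 held none. The window at AT3G12320 holds an untranslated exon and is cut to 30 bases around its G-box.
Summit over the non-coding loci AT2G09585 and AT2G09590, chr2:18523419-18523619: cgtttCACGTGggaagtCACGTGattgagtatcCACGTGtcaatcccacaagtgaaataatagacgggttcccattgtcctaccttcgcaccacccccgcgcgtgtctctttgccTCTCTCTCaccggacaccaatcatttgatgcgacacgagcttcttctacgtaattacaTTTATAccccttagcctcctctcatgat
Summit in AT3G12320, chr3:3923564-3923593: gatatgacagtaCACGTGGGCCaatgagaa
Summit over the non-coding locus AT3G09365, chr3:22326179-22326379: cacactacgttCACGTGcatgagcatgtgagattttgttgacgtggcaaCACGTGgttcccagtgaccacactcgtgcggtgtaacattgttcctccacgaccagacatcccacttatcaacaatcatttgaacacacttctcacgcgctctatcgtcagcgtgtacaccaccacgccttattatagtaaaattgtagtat
Summit downstream of ERF9, chr5:17807886-17808086: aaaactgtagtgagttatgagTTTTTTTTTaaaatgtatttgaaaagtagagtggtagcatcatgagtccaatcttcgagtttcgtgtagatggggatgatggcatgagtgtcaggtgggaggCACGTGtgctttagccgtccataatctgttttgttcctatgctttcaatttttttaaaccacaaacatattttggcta
Summit in an intron of ROT3, chr4:17189386-17189586: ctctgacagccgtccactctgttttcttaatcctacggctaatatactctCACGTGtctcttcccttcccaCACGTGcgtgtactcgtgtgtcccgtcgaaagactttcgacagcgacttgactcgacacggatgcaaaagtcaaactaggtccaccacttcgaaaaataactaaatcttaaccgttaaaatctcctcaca
Summit downstream of UGP2, chr5:5696241-5696441: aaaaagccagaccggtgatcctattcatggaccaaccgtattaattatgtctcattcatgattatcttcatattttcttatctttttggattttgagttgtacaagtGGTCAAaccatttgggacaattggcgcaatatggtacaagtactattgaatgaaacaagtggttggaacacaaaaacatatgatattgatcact
Summit upstream of PRR9, chr2:19232365-19232565: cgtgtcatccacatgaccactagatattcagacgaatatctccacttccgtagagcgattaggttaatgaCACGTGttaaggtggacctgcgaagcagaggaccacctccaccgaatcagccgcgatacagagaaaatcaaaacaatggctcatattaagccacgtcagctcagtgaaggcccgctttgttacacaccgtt
The G-box is spelled CACGTG, and 5 of the first 6 windows held it. The window over AT2G09585 and AT2G09590 held 3, beginning at −95, −83 and −67 bases from the summit, with a GAGA repeat (GAGAGAGA, read on the other strand) and a TATA box (TATAAA, other strand). In AT3G12320 the G-box overlapped a site II element (TGGGCC). ROT3 and AT3G09365 each held 2, and ERF9 held 1 beside a run of A read on the other strand. The UGP2 window held no G-box but a W-box (TTGACC, read on the other strand). The PRR9 window held 1 G-box, beginning at −30 bases from the summit.

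The PIAL2-only peaks were narrower and weaker than the other PIAL2-Myc peaks. Their median width was 288 bp, against 423 bp for the other peaks. The median fold enrichment over background at the summit was 1.79 (interquartile range 1.67 to 1.97), against 1.96, and the median −log10 q of the peak caller was 5.16, against 7.30. Of the 2557, 334 had a −log10 q of at least 10, 1002 lay from 5 to 10 and 1221 below 5. The peak lists that set the members differed in length: MORC6-Myc replicate 1 overlapped 4520 of the PIAL2-Myc peaks (57.4%), MORC6-Myc replicate 2 overlapped 2942 (37.3%), AIPP3-FLAG replicate 1 overlapped 1582 (20.1%) and AIPP3-FLAG replicate 2 overlapped 982 (12.5%). Because presence in a list depends on its caller's threshold, membership is a statement about called intervals and not about the absence of MORC6 or AIPP3.

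The border of the rule was narrow for many members. The 3 closest to it lay 0, 2 and 3 bp from a MORC6 or AIPP3 interval: chr2:10266282-10266541 (fold 1.68, −log10 q 4.00), chr3:20991371-20991632 (1.61, 3.06) and chr1:3945387-3945601 at AT1G11700 (1.60, 2.79). The 3 peaks just outside the membership shared 1, 1 and 2 bp with such an interval: chr5:10477811-10478389 (2.01, 7.57), chr5:16765058-16765307 (1.91, 6.16) and chr4:10715738-10716284 (2.59, 17.4). The median gap of a member to the nearest such interval was 1959 bp, and 524 members (20.5%) lay within 500 bp of one.

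PIAL2-Myc replicate 2, which the rule did not use, overlapped few of these peaks. It covered 64 of 2557 PIAL2-only peaks (2.50%, 95% Clopper-Pearson interval 1.93 to 3.19, counting error only), against 1694 of 5324 other peaks (31.8%, 30.6 to 33.1). The gap was present within each class of strength. In the strongest class, 16 of 334 PIAL2-only peaks were covered (4.79%, 2.76 to 7.66), against 1101 of 1863 other peaks (59.1%). From 5 to 10, 21 of 1002 were covered (2.1%), against 433 of 1977 (21.9%), and below 5 it was 27 of 1221 (2.21%), against 160 of 1484 (10.8%). Replicate 2 is itself a short list, with 1969 intervals on 0.968% of the nuclear genome, against 7881 on 3.23% for replicate 1. The paper lists fewer total and unique reads for replicate 2 than for replicate 1, at a longer read length. The part of depth in the low share was not tested. The 64 shared peaks had a median fold of 2.00 and −log10 q of 4.51 in replicate 2, against 2.34 and 7.57 for the 1694 others, so a member missing from replicate 2 was not shown to be absent there.

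A peak over PIAL2 itself, AT5G41580, led the 64 in both replicates. It spanned chr5:16626559-16632254 (5696 bp), the widest of the PIAL2-only peaks, and reached fold 5.22 and −log10 q 88.4 in replicate 1 and fold 13.8 and −log10 q 294.7 in replicate 2. The plants carried a genomic PIAL2 transgene, and its part in this peak was not tested. CAT2 (AT1G58030), which encodes a cationic amino acid transporter, carried 4 of the 64 within its locus. The one at its start (chr1:21467951-21468821) had fold 2.03 and −log10 q 7.86 in replicate 1 but fold 9.77 and −log10 q 171.6 in replicate 2. AT4G01985 held a peak of 2688 bp with fold 2.19 in replicate 1 and 4.34 in replicate 2. These 3 loci were the ones, among the 20 strongest members shared by the replicates, at which replicate 2 gave a −log10 q above that of replicate 1.

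Over all 64 shared peaks the median fold was 1.81 in replicate 1 and 2.00 in replicate 2, and the strongest by replicate 1 are described next. The peak over AT2G09585 and AT2G09590 had fold 3.34 and 2.24 in replicates 1 and 2, that in AT3G12320 had 3.04 and 1.90, and that over AT3G09365 had 2.93 and 2.55. AT3G12320 is annotated with the synonym LNK3, a member of a small family of clock-associated coactivators. ERF9, which encodes a transcriptional repressor of the ethylene response factor family, carried 2 of the shared peaks: 1 of 2045 bp downstream of its coding region (fold 3.02 and 2.37) and 1 of 652 bp in its coding exon (2.34 and 1.75). Peaks in ROT3, a cytochrome P450 of brassinosteroid metabolism, and beside UGP2, a UDP-glucose pyrophosphorylase, had fold 2.85 and 2.24, and 2.57 and 2.13. Of the 64, 9 had 50 bases at the summit that occurred at more than 1 nuclear place, and for those the read position is uncertain. Among the 20 strongest shared peaks these were AT1G58983 and AT1G59359, ribosomal protein genes whose summits each occurred at 4 places.

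The strongest members outside replicate 2 reached like values. The top one, 1954 bp past the start of AT3G23633 and in no transcribed locus, had fold 3.61 and −log10 q 41.6. A peak over the non-coding AT1G04453, upstream of TPS7, had 3.19 and 37.3, and one at −2596 bp from the start of MIPS2 had 3.24 and 32.5. PRR9, a pseudo-response regulator of the circadian clock, had 3.15 and 30.1 with the summit at −142 bp from its start. PIL6, also known as PIF5, a phytochrome-interacting bHLH factor, had 3.00 and 27.1 with the summit at 261 bp.

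MORC6-Myc in further lines, which the rule did not use either, overlapped many PIAL2-only peaks in some lines and few in pial1/2. The 3 pial1/2 lines overlapped 24, 24 and 26 of the 2557 (0.939%, 0.939% and 1.02%). The 3 morc6 lines overlapped 273, 1237 and 441 (10.7%, 48.4% and 17.2%), and the 2 Col-0 lines overlapped 116 and 1308 (4.54% and 51.2%). Every pial1/2 line was below each of the 5 others, but those 5 ranged over more than a factor of 10. The pial1/2 lines averaged 0.965% ± 0.0452 (SD, n = 3) and the others 26.4% ± 21.8 (SD, n = 5), a difference of −25.4 percentage points. The two-sided exact permutation test over the 56 splits of the 8 lines gave p = 0.125. The pial1/2 lists were short in general, with 1151, 1348 and 1215 nuclear intervals on 0.403%, 0.471% and 0.460% of the genome, against 8006, 13430 and 9308 intervals in the morc6 lines and 8958 and 13359 in the Col-0 lines. A lower share at PIAL2-only peaks therefore cannot be told apart from fewer called MORC6-Myc peaks genome-wide, whether by fewer bound sites or by a weaker library. The paper lists read counts of like size for the 8 libraries. It reports that the MORC6-Myc protein level was not lower in pial1/2, while the signal over Pol V peaks fell strongly. Which of these accounts for the short lists was not tested here.

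**Figure D1:**
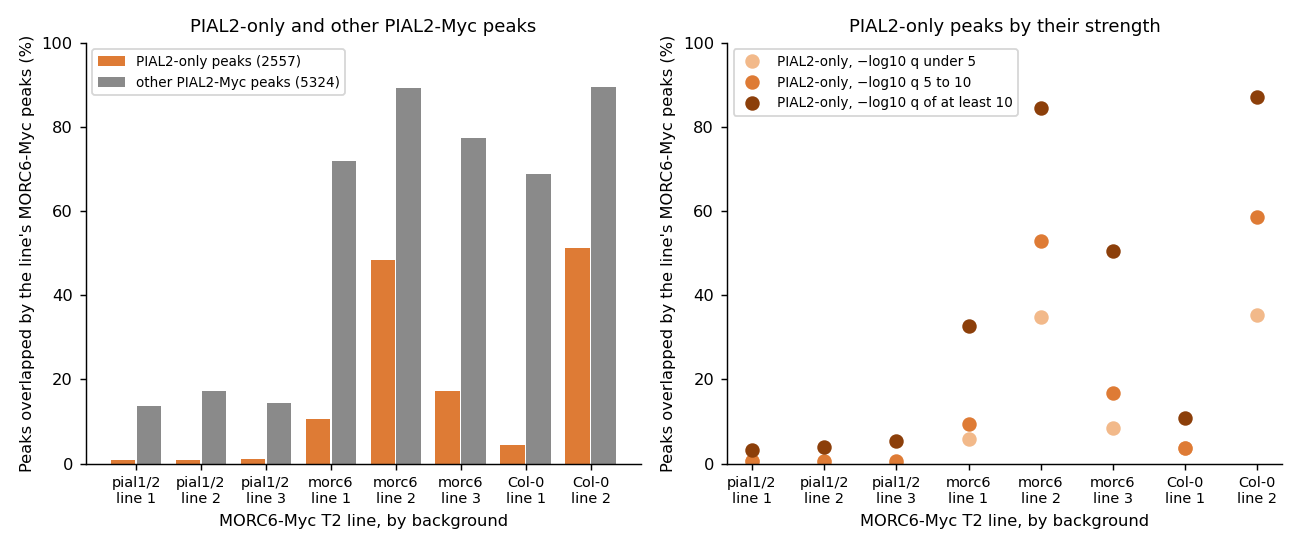
Share of peaks (%, vertical axis) that a MORC6-Myc peak overlapped in each of 8 lines (horizontal axis; 1 library each, no error bar). Left, PIAL2-only peaks (2557) beside other PIAL2-Myc peaks (5324); right, PIAL2-only peaks by strength class in replicate 1. The pial1/2 lines covered 0.939% to 1.02% of PIAL2-only peaks, the morc6 and Col-0 lines 4.54% to 51.2%.

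The same lines covered more of the other PIAL2-Myc peaks in every case, as the rule itself favours, since those peaks were set apart by overlap with MORC6-Myc or AIPP3-FLAG. The shares were 13.7%, 17.3% and 14.4% in pial1/2, 71.9%, 89.3% and 77.3% in morc6, and 68.8% and 89.4% in Col-0. For the 64 PIAL2-only peaks shared by the PIAL2-Myc replicates, the counts were 2, 2 and 4 in pial1/2, 21, 40 and 26 in morc6, and 18 and 31 in Col-0, which put the groups at 4.17% ± 1.80 (SD, n = 3) and 42.5% ± 13.6 (SD, n = 5). That difference of −38.3 percentage points had an exact permutation p = 0.0179, the smallest that 56 splits can give. The pial1/2 lists were the 3 shortest, which by itself can place these lines lowest. The p-value therefore says nothing particular to these 64 peaks.

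Across the 5 lines with PIAL1 and PIAL2 intact, 1004 PIAL2-only peaks (39.3%) lay in none and 56 (2.19%) in all 5, against 63.04% of the other PIAL2-Myc peaks in all 5. Strength in PIAL2-Myc replicate 1 went with presence in these lines: at least 1 line held 307 of the 334 strongest peaks (91.9%), 684 of the 1002 in the middle class (68.3%) and 562 of the 1221 weakest (46.0%). The 2 longest lists, morc6 line 2 and Col-0 line 2, held 84.4% and 87.1% of the strongest class, while morc6 line 1 held 32.6%, morc6 line 3 held 50.6% and Col-0 line 1 held 10.8%. Named peaks differed in the same measure. The peaks in AT3G12320, ROT3 and beside UGP2 lay in all 5 lines, those of PRR9 and PIL6 in 4, that over PIAL2 in 1 and both ERF9 peaks in 0. In pial1/2 lines, 58 PIAL2-only peaks (2.27%) were in at least 1 and 3 in all 3, the ROT3 intron among the 3.

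The lists of PHD1 and PHD3, PHD finger proteins found with AIPP3, overlapped few of the 2557 PIAL2-only peaks. PHD1-FLAG replicate 1 overlapped 99 (3.87%), against 24.8% of the other PIAL2-Myc peaks, and PHD1-FLAG replicate 2, a list of 27 intervals, overlapped 0, which allows a share of up to 0.144%. PHD3-FLAG overlapped 253 (9.89%), against 27.1%, and PHD3-Myc 2 (0.0782%), against 7.98%. Of the 64 members shared by the PIAL2-Myc replicates, PHD1-FLAG replicate 1 overlapped 17 (26.6%, 95% Clopper-Pearson interval 16.3 to 39.1). The same list overlapped 82 of the 2493 members outside replicate 2 (3.29%), and 49.1% of the other PIAL2-Myc peaks shared by the replicates. PHD3-FLAG overlapped 7 of the 64 (10.9%), and PHD1-FLAG replicate 2 and PHD3-Myc overlapped 0. In all, 819 PIAL2-only peaks (32.0%) lay in none of the 8 MORC6-Myc lines and none of the PHD1 and PHD3 lists, and PIAL2-Myc replicate 2 covered 12 of these.

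The share of PIAL2-only peaks away from genes was near that of the genome, 15.9% against 16.8% of bases, and the classes within and beside genes differed. The summit was in a coding exon in 620 (24.2%), within 1 kb upstream of a gene in 565 (22.1%), in an untranslated exon in 485 (19.0%), within 1 kb downstream in 192 (7.51%), in an intron in 130 (5.08%), in a non-coding RNA locus in 120 (4.69%), in a pseudogene in 38 (1.49%) and elsewhere between genes in 407 (15.9%). The other PIAL2-Myc peaks had 17.7% in coding exons and 25.3% upstream, and the nuclear genome as a whole has 28.3% of its bases in coding exons and 13.3% upstream. The median distance of the summit from the nearest protein-coding start was 525 bp, against 651 bp for the other peaks.

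The place of the summit went with the strength of the peak. In the class below 5, 32.7% of summits were in coding exons and 17.4% upstream, whereas in the class of at least 10 it was 9.28% and 31.7%, with 24.6% elsewhere between genes. The median distance from a start was 425 bp in the weakest class, 618 bp in the middle class and 950.5 bp in the strongest. The 64 members shared by the replicates did not follow the strongest class: 45.3% were in coding exons and 7.81% upstream, although 4 of them lay in CAT2 and 2 in ERF9 and were not separate places.

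**Figure D2:**
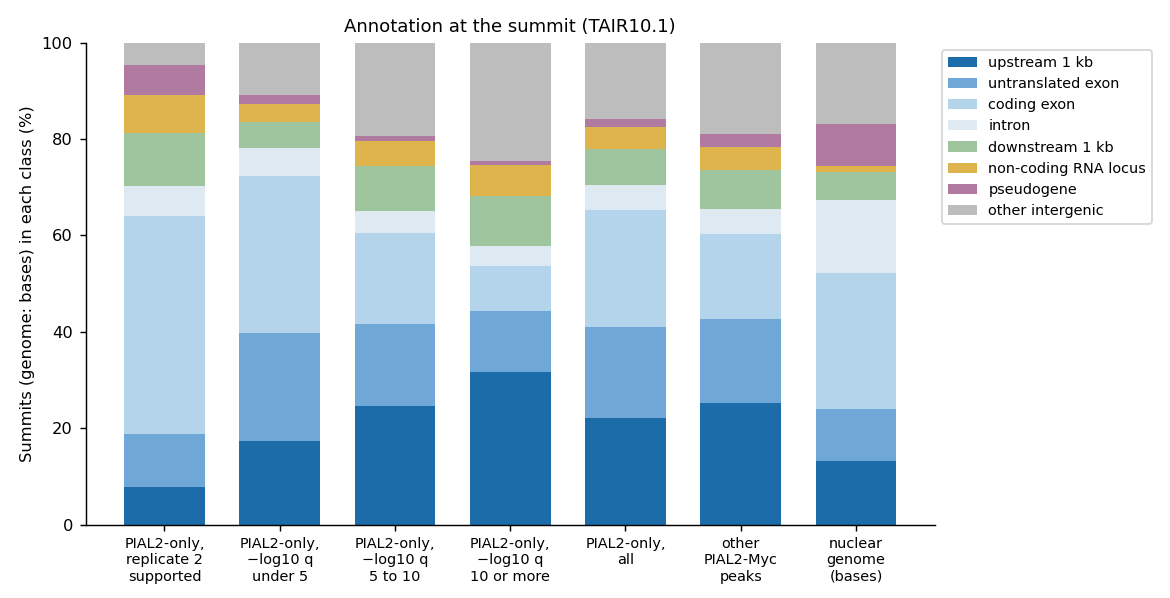
Share of peak summits (%, for the genome of bases) in each annotation class, TAIR10.1, for PIAL2-only peaks shared with PIAL2-Myc replicate 2 (64), in 3 strength classes and together, for other PIAL2-Myc peaks and for the nuclear genome. Coding exons take 32.7% of the weakest PIAL2-only class and 9.28% of the strongest.

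PIAL2-only peaks were rare in gene-poor chromosome regions. The 44 of 240 windows of 500 kb with the least genic sequence hold 18.5% of the genome and held 123 PIAL2-only peaks (4.81%), against 1043 of the other PIAL2-Myc peaks (19.6%). Otherwise the members were spread evenly, from 19.2 per Mb on chromosome 2 to 22.9 per Mb on chromosome 1. Repeat-masked sequence made up a mean of 19.8% of a member, against 21.9% of the genome, and the median was 18.4%, against 23.1% at other peaks. The summit windows had a median GC content of 39.8%, against 37.8% at other peaks and 36.3% over all nuclear windows of that length.

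The G-box was the element that differed most from the genome among those searched. It was in 461 of the 2557 summit windows (18.0%, 95% Clopper-Pearson interval 16.6 to 19.6), against 574 of the 5324 other PIAL2-Myc windows (10.8%). All 592765 nuclear windows of the same length held it in 2.2%, and windows of that length before the 27444 protein-coding starts in 5.66%. Among PIAL2-only peaks the share was 11.1% (9.43 to 13.0) below 5, 21.1% (18.6 to 23.7) from 5 to 10 and 34.1% (29.1 to 39.5) at 10 or more, and these intervals did not overlap. Other PIAL2-Myc peaks of the same classes held it in 6.13%, 9.66% and 15.7%. The comparison is a description, since summits chosen by their strength are the rule's own measure, and a match of letters is not a bound site.

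The G-boxes were close to the summit. In the strongest class, 88 G-boxes lay within 50 bp of the summit (26.3 per 100 peaks), against 3.29 per 100 peaks from 400 to 500 bp away. The middle class had 16.4 and 3.99, the weakest class 6.47 and 4.01, and the other PIAL2-Myc peaks 8.17 and 2.84. The share was also highest where the summit was upstream of a gene (27.4%) or in a non-coding RNA locus (25.8%), and lowest, apart from pseudogenes, in coding exons (9.03%). Other PIAL2-Myc peaks held it in 13.6%, 9.16% and 6.90% of the same places. The 64 shared peaks held it in 12 (18.8%), about the share of all members.

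**Figure D3:**
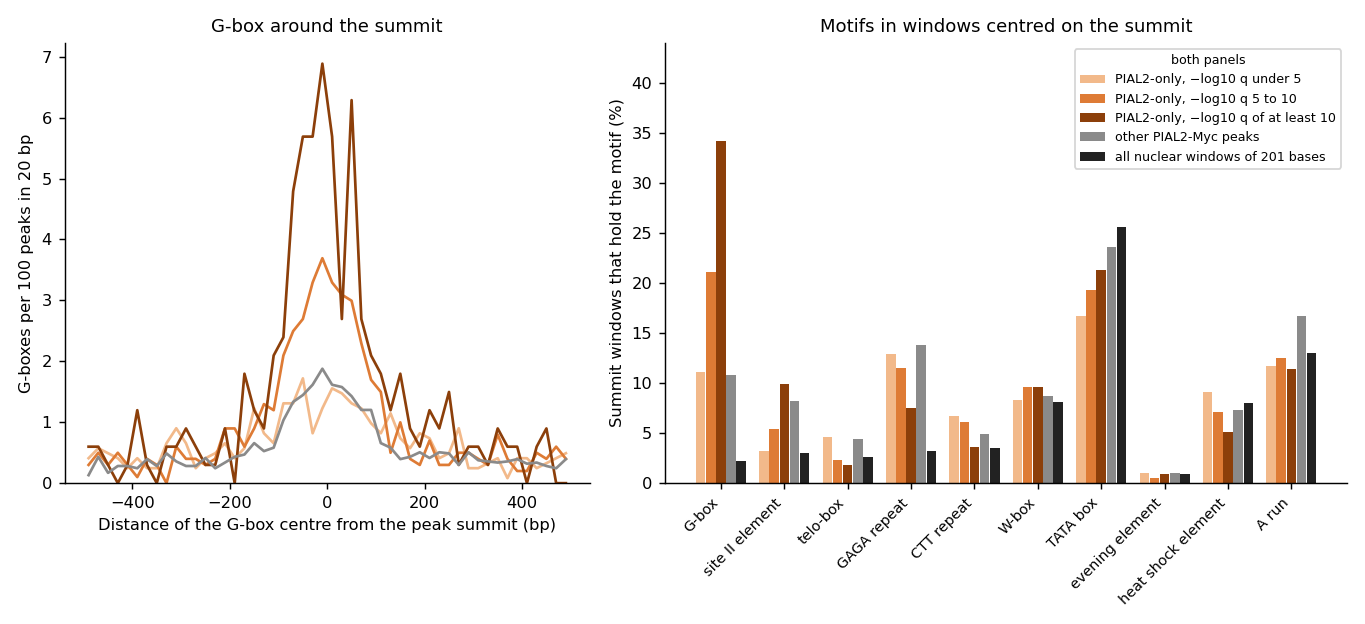
Left, number of G-boxes (CACGTG) per 100 peaks in bins of 20 bp against the distance of the G-box centre from the summit (bp); right, share of summit windows (100 bases to either side) that hold each motif (%). The strongest PIAL2-only class has 34.1% of windows with a G-box, the other PIAL2-Myc peaks 10.8% and all nuclear windows of the same length 2.2%.

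The remaining motifs were less apart. The site II element was in 4.93% of PIAL2-only windows and 9.88% of the strongest class, against 8.25% of other PIAL2-Myc windows and 12.6% of the windows before protein-coding starts. The GAGA repeat was in 11.7%, against 13.8% of other peaks and 3.19% of all windows, and here the strongest class had the fewest, 7.49%. The telo-box (AAACCCTA) was in 3.32%, against 4.40% and 2.64%, and the CTT repeat (CTTCTTCTT) in 6.06%, against 4.90% and 3.48%. The TATA box was in 18.3%, against 23.6% of other peaks and 25.6% of all windows, and the A run (AAAAAAAA) in 12.0%, against 16.7% and 13.0%. The W-box (TTGACC) was in 8.99%, against 8.70% and 8.07%, the heat shock element (GAANNTTC) in 7.78%, against 7.34% and 7.98%, and the evening element (AAAATATCT) in 0.782%, against 1.014% and 0.959%.

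The PIAL2-only peaks overlapped 1702 annotated loci, of which 1430 were protein-coding (5.21% of all protein-coding loci), 153 long non-coding RNAs and 25 tRNAs. At least 1 locus was overlapped by 1632 of the 2557 peaks (63.8%). Light and clock regulators had 8 of 20 loci at PIAL2-only peaks: the photoreceptors PHYA and CRY1, the ubiquitin ligase COP1, the bZIP factor HY5, PIL6, and the clock components PRR9, PRR7 and TOC1. A further 5 of the 20 were at other PIAL2-Myc peaks alone. None of the 8 peaks was shared with replicate 2. Their strength ranged widely: PRR9 and PIL6 are given above, PRR7 had fold 2.30 (−log10 q 13.5), COP1 1.93, HY5 1.88, PHYA 1.78, CRY1 1.75 and TOC1 1.63 (−log10 q 3.37). The windows of PRR9, PIL6 and PRR7 held a G-box, those of the remaining 5 did not. HY5 also held other PIAL2-Myc peaks, the strongest with fold 2.28 (−log10 q 13.7) and its summit at −106 bp from the start. Among the loci at other PIAL2-Myc peaks alone, LHY (fold 3.14), PCL1 (3.14), PIF4 (2.53) and CCA1 (1.92) had a G-box. The peak at ELF4 (2.87) had none.

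The other lists are set against the 5.21% of all protein-coding loci. Protein kinases had 109 of 1388 loci at PIAL2-only peaks (7.85%) and MYB factors 22 of 282 (7.80%). Cytosolic ribosomal proteins had 14 of 329, with 56 at other PIAL2-Myc peaks alone, heat shock proteins 9 of 232, NLR disease resistance proteins 6 of 159, F-box proteins 15 of 653 and WRKY factors 2 of 72. Histones had 0 of 52, with 18 at other PIAL2-Myc peaks alone. In the short lists 1 locus weighs much. Among genes of RNA-directed DNA methylation, AGO6 and RDM1 of 18 had one, among floral homeotic and meristem genes LFY of 11, among floral repressors and integrators AGL8 of 7, among photosynthesis genes CAB2 of 13, among genes of the SUMO pathway 0 of 13 and among the MOM1 complex and its partners only PIAL2 of 9, the peak described above. The lists were chosen with results of these data known and serve as a description.

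In Col-0 seedlings most of the overlapped loci were expressed. The seedlings expressed all 13 photosynthesis genes listed, at a mean of 1119 to 25351 TPM (transcript abundance scaled to library and length), and 5 of 11 floral genes at 1 TPM or more, so their levels are those of a tissue other than the ChIP tissue. Of the 1702 loci, 1530 were in the expression tables, with a median of 12.4, 12.0 and 12.5 TPM in the 3 Col-0 libraries (mean 12.3 ± 0.280, SD, n = 3). Protein-coding loci at PIAL2-only peaks had a median of 13.6 TPM, those at other PIAL2-Myc peaks alone 16.4 and all protein-coding loci 6.82. At 1 TPM or more were 91.5% of the first, 84.2% of the second and 71.1% of all, and at 0 in all 3 libraries were 2.75%, 7.23% and 14.1%. At 100 TPM or more were 5.01%, against 15.2% at other PIAL2-Myc peaks and 5.69% of all, so the loci of PIAL2-only peaks filled the middle of the range. Loci at the strongest class had a median of 8.97 TPM and those at the 64 shared peaks 2.91 TPM (56 loci).

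**Figure D4:**
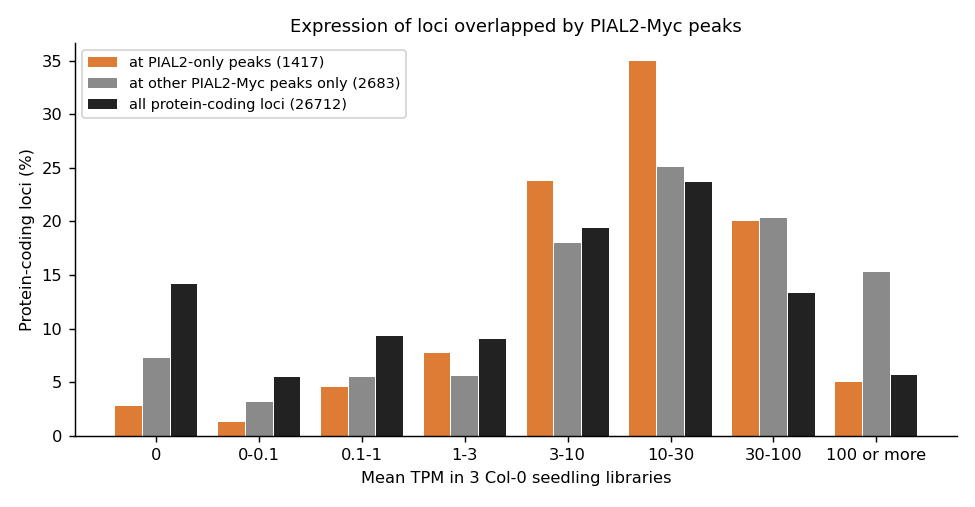
Share of protein-coding loci (%) by mean expression in the 3 Col-0 seedling libraries (TPM, unequal ranges on the horizontal axis) for loci at PIAL2-only peaks, loci at other PIAL2-Myc peaks alone and all protein-coding loci. Of the loci at PIAL2-only peaks, 2.75% are at 0 and 5.01% at 100 TPM or more.

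To see how these loci differed in each mutant, each genotype was compared with the same 3 Col-0 libraries, so the 7 comparisons share their controls. A call needed a log2 fold change of at least 1 and an adjusted p under 0.05 (edgeR quasi-likelihood test, Benjamini-Hochberg over all genes and transposable elements tested). The p-values measure the spread between these samples, since separate growth of the replicates is not given, and in whole seedlings fewer cells of a type and less RNA per cell cannot be told apart. The 24 libraries held 14.7 to 25.4 M expected counts. The mutated genes followed their labels in part: PIAL2 fell in pial1/2 and pial2-1, MORC6 fell in morc6-3 (2.23, 2.27 and 1.84 TPM) and morchex, against 5.93, 4.62 and 5.04 TPM in Col-0, and AIPP3 fell in aipp3-1 (log2 −1.80) and aipp3-2 (−3.18). PIAL1 (AT1G08910) did not pass the test in either genotype that carries the pial1-2 insertion, at 7.82, 7.66 and 9.23 TPM in pial1/2 and 7.02, 7.88 and 7.37 TPM in pial1-2, against 7.56, 6.72 and 7.63 TPM in Col-0, so its RNA level checks neither label.

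Few loci at PIAL2-only peaks were called in the pial genotypes. In pial1/2, 0 of 1337 tested loci were higher, against 0.474% of all features, and 1 was lower, against 0.0101%. In pial2-1 it was 0 higher (0.0961% of all) and 2 lower (0.0506%) of 1339, and in pial1-2 0 higher (0.0455%) and 1 lower (0.0607%) of 1337. At an unadjusted p under 0.05, 23, 26 and 52 loci were higher and 28, 67 and 97 lower in the 3 genotypes. Their shares over all features were not taken, so these counts are not read as a trait of the loci. DESeq2 called 0, 1 and 1 higher and 3 lower in each. Over all features it called 109, 68 and 48, of which 104, 32 and 23 were higher. The members lower were PIAL2 itself in pial1/2 and in pial2-1, ERF9 in pial2-1 and AT5G35935 in pial1-2. PIAL2 is mutated in both of its genotypes, so its calls were set by the genotype. It was the only call in pial1/2.

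PIAL2 was at 0.83, 0.72 and 0.46 TPM in pial1/2 and 0.41, 0.54 and 0.56 TPM in pial2-1, against 5.09, 4.57 and 5.16 TPM in Col-0. The log2 fold changes were −2.86 (SE 0.185, adjusted p = 0.000192, edgeR) and −3.24 (SE 0.144, adjusted p = 0.000221). ERF9 was at 0, 0.07 and 0 TPM in pial2-1, against 1.73, 2.00 and 1.86 TPM in Col-0 (log2 −5.95, SE 0.579, adjusted p = 0.011), with no overlap between the groups. In pial1/2, which carries the same pial2-1 allele, ERF9 was at 1.19, 0.52 and 0.24 TPM (log2 −1.52, adjusted p = 0.847), and in pial1-2 at 2.91, 2.15 and 1.64 TPM. The ERF9 call was lost on leaving out any 1 Col-0 library (adjusted p up to 0.0896).

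AT5G35935, a pseudogene with a weak PIAL2-only peak (fold 1.65), had a different level in nearly every genotype. It was at 0.04, 0 and 0.02 TPM in pial1-2, against 0.45, 0.95 and 1.12 TPM in Col-0 (log2 −5.22, edgeR adjusted p = 0.00869), while pial1/2, which carries the same pial1-2 allele, had 0.86, 1.27 and 1.27 TPM. The pial1-2 call was lost without pial1-2 replicate 2 (adjusted p = 0.0565). The locus was higher in morc6-3 (3.24, 3.30 and 3.02 TPM) and lower in morchex (0.15, 0.16 and 0.15 TPM) and aipp3-1 (0.07, 0.07 and 0.02 TPM). In aipp3-2 it was at 0 in all 3 libraries, at least 31.6-fold lower than Col-0 with a floor of 3 counts per library. The direction thus differed between morc6-3 and morchex, which carries the morc6-3 allele too.

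SEP3, a floral MADS-box factor, lies outside the overlap rule and was chosen after its values were seen. A PIAL2-only peak with a G-box lay at −569 bp from its start (fold 2.23, −log10 q 11.8) and in 4 of the 5 MORC6-Myc lines. SEP3 was at 12.93, 13.01 and 11.95 TPM in pial1/2, against 4.39, 6.42 and 4.86 TPM in Col-0 (log2 1.31, edgeR adjusted p = 0.00638), a call lost without Col-0 replicate 3 (adjusted p = 0.0503). In pial1-2 it was at 15.29, 16.81 and 13.49 TPM (1.60, adjusted p = 0.00432) and in pial2-1 at 9.28, 7.74 and 5.35 TPM (0.55, adjusted p = 0.614). In aipp3-1 and aipp3-2 it was higher still (2.72 and 2.75), and in morc6-3 it was at 5.09, 3.11 and 5.24 TPM (−0.13).

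More of the loci at PIAL2-only peaks were called in the morc and aipp3 genotypes, at shares near those of all features. The cause of these differences was not tested. In morc6-3, 12 of 1345 tested loci were higher and 39 lower (all features 1.03% and 2.33%). In morchex, 14 of 1348 were higher and 41 lower (1.46% and 2.45%), in aipp3-1 20 of 1359 were higher and 20 lower (1.78% and 1.1%), and in aipp3-2 24 of 1356 were higher and 23 lower (2.68% and 1.53%). The median log2 fold change of the loci was −0.06 in morc6-3, −0.05 in morchex, −0.05 in aipp3-1 and −0.07 in aipp3-2, against 0.00 to 0.01 for all features, and 0.01, −0.01 and −0.02 in pial1/2, pial2-1 and pial1-2. The calls depended on single libraries, and so did those over all features. Of all features, aipp3-1 had 577 called, but 75 without Col-0 replicate 2 and 137 without Col-0 replicate 3. For morc6-3 the count over all features was 667, and 469 without Col-0 replicate 3. The counts for the loci at PIAL2-only peaks follow. All 6 fits that left out 1 library kept 26 of the 51 calls in morc6-3, 28 of 55 in morchex, 20 of 47 in aipp3-2 and 1 of 40 in aipp3-1, where 36 calls were lost without Col-0 replicate 2 and 33 without Col-0 replicate 3.

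In the 4 genotypes together, 84 loci were called in at least 1 and 19 in all 4, of which 7 were higher, 11 lower and 1, AT5G35935, changed direction. The same counts over all features were not taken, so these are not a trait of the loci at PIAL2-only peaks. The 4 comparisons also share their Col-0 libraries, so calls in all 4 are not independent. Higher in all 4 were PRR9, AT3G12320, DREB1A, PRE1, AFR, RLK and AT1G11700. PRR9 was at 21.23, 20.49 and 15.1 TPM in morc6-3, 18.82, 23.37 and 20.35 in morchex, 24.66, 23.91 and 14.14 in aipp3-1 and 25.95, 23.12 and 19.08 in aipp3-2, against 6.25, 4.15 and 2.56 TPM in Col-0. The log2 fold changes were 2.15 (SE 0.266, edgeR adjusted p = 0.00172), 2.34 (0.271, 0.00226), 2.24 (0.319, 0.0108) and 2.32 (0.279, 0.00266), and the groups did not overlap in any. In pial1/2 it was at 9.63, 4.08 and 3.74 TPM, within reach of Col-0 (0.46, adjusted p = 1).

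AT3G12320, the locus with the second strongest member in a protein-coding gene shared by the replicates, followed the same order. It was at 24.06, 25.16 and 30.44 TPM in morc6-3 (log2 1.35, edgeR adjusted p = 0.00684) and 29.26, 30.44 and 31.41 TPM in morchex (1.58), against 15.38, 7.86 and 8.61 TPM in Col-0. In aipp3-1 it was at 33.35, 32.21 and 21.02 TPM (1.41) and in aipp3-2 at 29.18, 33.86 and 34.27 TPM (1.53). Its levels in pial1/2 were 21.2, 10.17 and 8.7 TPM, with replicate 1 highest as in Col-0.

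DREB1A, a cold-induced AP2 transcription factor, was the most raised of the 7. It was at 7.42, 9.89 and 4.53 TPM in morc6-3, against 0.55, 0.62 and 0.23 TPM in Col-0 (log2 3.98, edgeR adjusted p = 0.000718), with 4.01 in morchex, 3.39 in aipp3-1 and 3.85 in aipp3-2. In the 3 pial genotypes it was too low to be tested. PRE1, a bHLH factor that promotes cell elongation, averaged 17.1 ± 4.2 TPM in morc6-3 and 1.84 ± 1.44 TPM in Col-0 (SD, n = 3 each; log2 3.23, edgeR adjusted p = 0.00163). Its log2 fold change was 2.98 in morchex, 3.11 in aipp3-1 and 2.71 in aipp3-2. AFR, an F-box protein of far-red light signalling, had 1.61, 1.70, 1.37 and 1.37 in the same order.

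**Figure D5:**
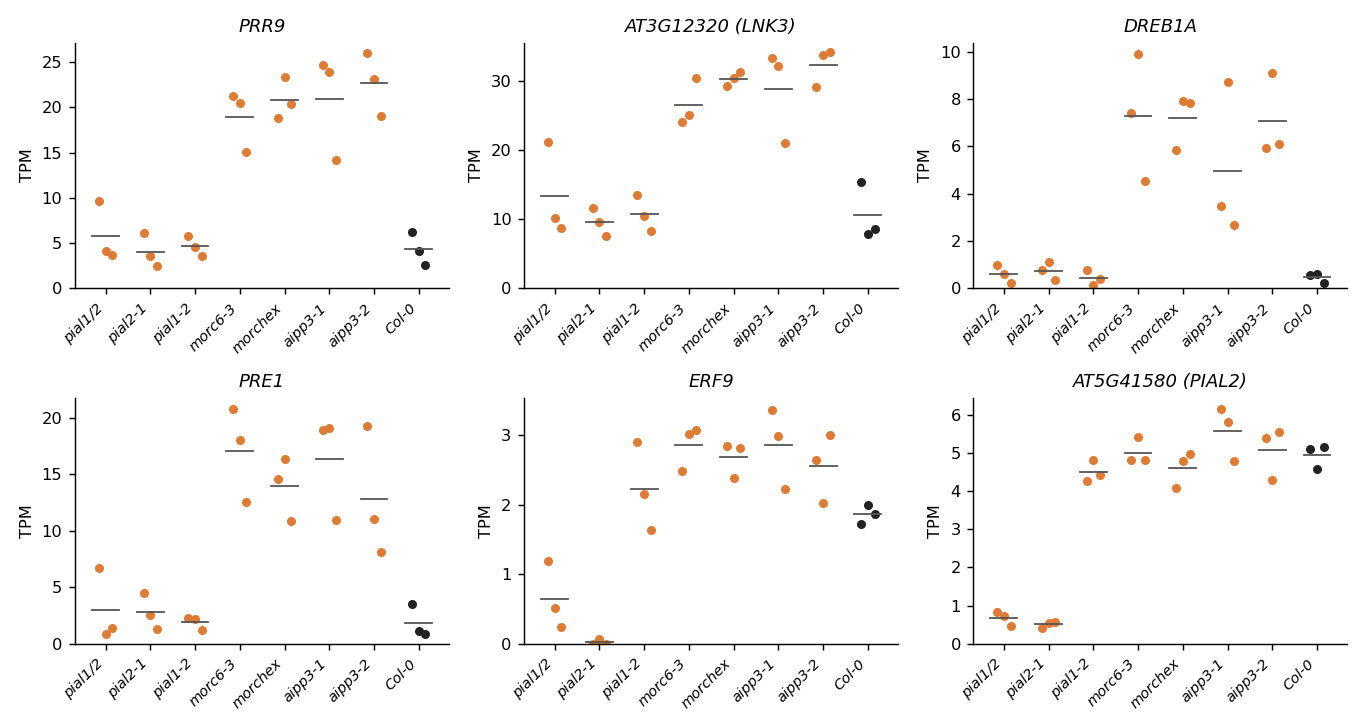
Expression (TPM, linear axes from 0) of 6 loci at PIAL2-only peaks in 7 mutants and Col-0; points are the 3 libraries of a genotype and lines their means. PRR9 lies at 14.14 TPM or more in every morc and aipp3 library and at 6.25 or less in Col-0; ERF9 lies at 0.07 TPM or less in pial2-1.

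The 11 loci lower in all 4 included LRX3, GALS1, EXLA2, WRI4 and AT1G50040. LRX3, a leucine-rich repeat extensin of the cell wall, was at 18.92, 28.83 and 29.26 TPM in morc6-3, against 103.83, 114.73 and 128.8 TPM in Col-0 (log2 −2.15, edgeR adjusted p = 0.000329). It was at 16.69, 24.53 and 32.23 TPM in morchex (−2.17), 23.57, 37.63 and 58.44 in aipp3-1 (−1.55) and 22.19, 39.18 and 49.08 in aipp3-2 (−1.73). GALS1, a galactan synthase, had −1.63, −1.64, −1.57 and −1.59, and EXLA2, an expansin-like protein, −1.88, −1.91, −1.51 and −1.61. WRI4, an AP2 factor of cuticular wax synthesis, had −1.83, −1.83, −1.71 and −1.91. The largest fall of these was in AT1G50040, at 1.73, 2.67 and 4.6 TPM in morc6-3, against 23.62, 24.98 and 30.33 TPM in Col-0 (−3.11, adjusted p = 0.000486). In aipp3-1 the calls on AT1G50040, LRX3, GALS1 and EXLA2 were each lost without aipp3-1 replicate 2, without Col-0 replicate 2 and without Col-0 replicate 3.

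A few loci were called in the aipp3 mutants and in neither morc genotype, a difference that was not tested. AGO5, an Argonaute with a PIAL2-only peak in its coding exon (fold 2.01), was at 0.41, 0.46 and 0.7 TPM in aipp3-1, against 0.08, 0.03 and 0.08 TPM in Col-0 (log2 2.92, edgeR adjusted p = 0.0115), and at 0.62, 0.71 and 0.73 TPM in aipp3-2 (3.26, adjusted p = 0.0015). RVE1, a MYB-like factor of auxin rhythms, was at 16.31, 16.62 and 9.1 TPM in aipp3-1 and 8.74, 17.43 and 13.94 TPM in aipp3-2, against 8.22, 4.2 and 6.01 TPM in Col-0 (adjusted p = 0.0389 and 0.0481). AGL8, a MADS-box factor also known as FRUITFULL, had 1.01 in aipp3-2 (adjusted p = 0.00916). TOC1 had an adjusted p of 0.00278 to 0.0132 but log2 fold changes of −0.69 to −0.79 in the 4 genotypes, short of the threshold of 1. Of the 20 light and clock regulators, 1, 2, 3 and 3 were higher in morc6-3, morchex, aipp3-1 and aipp3-2 and 0 in the 3 pial genotypes. The count takes in regulators without a PIAL2-only peak. Of all features, 1.03%, 1.46%, 1.78% and 2.68% were higher in the same 4 genotypes. The list was chosen with results of these data known, and 1 locus weighs much in it.

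Loci that changed had weak as well as strong peaks. Besides the strong peaks at PRR9 and AT3G12320, those at DREB1A, AT1G50040 and AT1G11700 had fold 1.70, 1.61 and 1.60, near the lower end of the members, and those at LRX3 had 1.59, 1.56 and 1.71. In contrast, ROT3 (fold 2.85) was at 6.64, 7.66 and 6.71 TPM in morc6-3, against 7.49, 6.3 and 6.04 TPM in Col-0, and UGP2 (2.57) reached a log2 fold change of 0.72 at most. A peak of the strongest class lay at 2 of the 12 higher and 7 of the 39 lower loci in morc6-3, at 2 of 14 and 7 of 41 in morchex, at 3 of 20 and 7 of 20 in aipp3-1 and at 4 of 24 and 5 of 23 in aipp3-2, against 8.56% to 8.74% of the loci not called. Among the loci called higher, 5 of 12 in morc6-3 (41.7%), 5 of 14 in morchex (35.7%), 8 of 20 in aipp3-1 and 9 of 24 in aipp3-2 (37.5%) had a PIAL2-only peak with a G-box, against 8 of 39, 7 of 41, 5 of 20 and 2 of 23 of those called lower and 13.5% to 13.6% of those not called. The counts are small and are given as a description.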

How the data were processed

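ChIP-seq peak lists (18) and RNA-seq tables (24 libraries) were used. Per the study's methods, the authors aligned reads to TAIR10 with Bowtie2 2.4.2, removed duplicates with SAMtools 1.15 and called peaks with MACS2 2.1.2; the deposited lists give fold enrichment (a ratio) and −log10 q per peak. Peaks frequent in Col-0 FLAG controls were removed from the study's analysis; whether the deposited lists hold them is not given in the sources used here. The authors quantified RNA with RSEM, and its deposited expected counts and TPM were used; strand use is not stated for a stranded kit, so overlapping and antisense loci are uncertain.

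Intervals overlapped at 1 bp or more, and repeats of an interval were merged. Expected counts were rounded, filtered (CPM of at least 1 in 2 of the 6 libraries of a comparison), TMM-scaled and tested with edgeR 4.0.16 in R 4.3.3, on the whole table of 64790 features. The steps were tested on simulated data. Named peaks were the 20 strongest shared with replicate 2, the 10 strongest others and those at the rule's border; named genes were those overlapped, called, mutated or on fixed lists. Members and lists were chosen with earlier results of these data known. Pairing by replicate number was checked. In pial1/2 every same-numbered pair correlated above 0.1 (0.403, 0.170 and 0.307), and in no other comparison did all 3. In pial2-1 the pairs had 0.252, 0.0908 and 0.122. In pial1/2 and pial2-1 alone, the same-numbered Col-0 library was the best match of every mutant library. Where the pairing comes from is not given. Alternatives were DESeq2 1.42.0, no filter, a replicate block, leaving out libraries, overlap of 50%, a −log10 q of 5, a 500 bp margin and leaving out lists from the rule. Sequences and annotation are RefSeq TAIR10.1; no interval ran past a chromosome end.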

Additional observations from a re-analysis of the deposited data

How the results depend on the processing

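The share of PIAL2-only peaks covered by PIAL2-Myc replicate 2 was 4.85% when MORC6-Myc replicate 1 was left out of the rule and 3.53% without MORC6-Myc replicate 2, against 2.50%, and 2.41% to 2.86% with 50% overlap, −log10 q of at least 5 or a 500 bp margin. The MORC6-Myc difference was −40.6 percentage points (exact permutation p = 0.0357) without MORC6-Myc replicate 1 in the rule and −38.3 (p = 0.0179) for the shared members, against −25.4 (p = 0.125); leaving out 1 line gave −30.9 to −19.2. Median expression was 15.2 TPM for loci of 1 TPM or more and 2.91 TPM at shared members, and 12.2 to 12.5 leaving out 1 library.

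Called loci numbered 1 in pial1/2 (3 with DESeq2), 2 in pial2-1 (4 with DESeq2, 1 for loci with a start within 1 kb) and 1 in pial1-2 (4 with DESeq2, 4 with no filter, 0 for loci of shared members). For loci of shared members alone the count was 1 in morc6-3, 2 in morchex, 1 in aipp3-1 and 1 in aipp3-2. With the replicate block it was 2 in pial1/2, adding AT1G53903 (log2 −1.02, adjusted p = 0.00309), 2 in pial2-1, 3 in pial1-2, 56 in morc6-3, 56 in morchex, 35 in aipp3-1 and 47 in aipp3-2. In pial1/2 and pial2-1, but in no other comparison, every mutant library correlated best with the Col-0 library of the same number. Leaving out 1 library gave 1 to 1 in pial1/2, 1 to 2 in pial2-1, 0 to 3 in pial1-2, 31 to 64 in morc6-3, 36 to 69 in morchex, 4 to 61 in aipp3-1 and 27 to 64 in aipp3-2. The low counts came without Col-0 replicate 3 in morc6-3, morchex and aipp3-2; in aipp3-1 they were 4 without Col-0 replicate 2, 7 without Col-0 replicate 3 and 19 without aipp3-1 replicate 2, with 61 without aipp3-1 replicate 3. In pial2-1 the count was 1 without any 1 Col-0 library, and in pial1-2 it was 0 without pial1-2 replicate 2 and 3, 2 and 2 without Col-0 replicates 1, 2 and 3. Over all features the count moved too, from 75 to 762 in aipp3-1 and from 469 to 816 in morc6-3. The cause was not tested.

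Depth of the ChIP libraries did not enter the counts here, so an interval missing from a list does not show absence. The shares follow each list's length, and so do the permutation p-values on the MORC6-Myc lines.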
